A study of Homo sapiens with 7 samples.

Results

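The KMT2D chromatin immunoprecipitation (ChIP-seq) of SW1990 cells, an established human pancreatic ductal adenocarcinoma line, was read as 2 lists of enriched genomic intervals. The NC list came from cells carrying a negative control shRNA, and the KMT2D-KD list came from cells carrying an shRNA against KMT2D. All 238 intervals of the NC list and all 318 of the KMT2D-KD list were taken, 556 in total out of 158138 intervals in the 6 lists of the series. An interval was counted as found in the other list when it overlapped one of its intervals by at least 1 base. The other 4 lists hold EBF2 and H3K4me1 intervals of the same NC and KMT2D-KD cells, and all 6 were called against a single SW1990 input library whose shRNA the labels do not give. Each list came from 1 library, so no difference between NC and KMT2D-KD has a replicate check, and no p-value was computed. The ranges given beside shares are 95% confidence intervals of the exact binomial kind (Clopper-Pearson). They reflect the number of intervals counted and no other source of error. None of the lists measures KMT2D RNA or protein, so the extent of the knockdown cannot be read from them.

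KMT2D is a histone methyltransferase that adds the first methyl group to lysine 4 of histone H3, mainly at enhancers. It works in a complex with the subunits WDR5, RBBP5, ASH2L and DPY30, which other H3K4 methyltransferases share, and with KDM6A, PAXIP1, PAGR1 and NCOA6. In ChIP-seq, fragments of DNA bound by an antibody's target are sequenced, and an interval is listed where they pile up more densely than in input DNA. A tandem repeat is a stretch of DNA in which a unit is copied head to tail. Dinucleotide repeats, telomeres and the alpha satellite of centromeres are familiar examples. A short read from such a stretch can match many places, and the number of copies in a cell line can differ from the number in the reference.

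Most KMT2D intervals of both lists lay in tandem repeats. The sequences of 4 intervals show the kinds of DNA involved, each given 5′ to 3′ on the plus strand of hg38, with the repeat tract in capitals. The first is the second strongest NC interval, in both lists, and the next is the strongest interval present in the KMT2D-KD list and absent from the NC list. The last pair hold no tandem repeat: one is the single such interval in both lists, and the other was the most enriched one of the NC list where input was low.
TRERF1 intron, both lists, chr6:42262431-42262611: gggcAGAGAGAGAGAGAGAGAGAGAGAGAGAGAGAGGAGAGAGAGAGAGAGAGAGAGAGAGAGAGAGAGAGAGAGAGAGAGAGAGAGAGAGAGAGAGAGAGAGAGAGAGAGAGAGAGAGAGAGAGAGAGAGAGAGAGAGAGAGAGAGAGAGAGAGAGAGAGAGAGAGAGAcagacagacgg
nearest start NECTIN1, KMT2D-KD only, chr11:119743983-119744140: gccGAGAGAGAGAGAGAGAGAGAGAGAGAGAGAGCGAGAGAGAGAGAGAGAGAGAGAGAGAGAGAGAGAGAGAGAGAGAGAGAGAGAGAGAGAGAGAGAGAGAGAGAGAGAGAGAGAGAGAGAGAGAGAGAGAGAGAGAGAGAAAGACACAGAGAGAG
FAM230C exon, both lists, chr13:18211847-18212055: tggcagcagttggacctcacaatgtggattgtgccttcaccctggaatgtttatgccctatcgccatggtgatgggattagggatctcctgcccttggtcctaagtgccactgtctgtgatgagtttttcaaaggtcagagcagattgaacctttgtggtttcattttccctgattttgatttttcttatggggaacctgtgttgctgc
H2BC18 coding exon, NC only, chr1:149812036-149812221: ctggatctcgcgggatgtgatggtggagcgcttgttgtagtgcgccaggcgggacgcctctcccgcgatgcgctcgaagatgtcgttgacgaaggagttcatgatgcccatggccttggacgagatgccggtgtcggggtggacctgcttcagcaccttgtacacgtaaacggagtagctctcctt
The TRERF1 and NECTIN1 intervals were almost wholly repeats of AG, with 166 of 181 and 155 of 158 bases in the tract. The FAM230C and H2BC18 intervals held no base in a scored tract.

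The KMT2D-KD list was the longer one, although its recovered depth was the lower. It held 318 intervals against 238, a log2 ratio of 0.42 (95% interval 0.17 to 0.67), and covered 91.4 kb against 77.6 kb. That 95% interval treats the 2 counts as independent, although 180 regions were in both lists. The recovered depth was 6.43 fragments per 1000 bases for the NC library and 5.45 for the KMT2D-KD library. Of the NC intervals, 180 of 238 (75.6%, 95% interval 69.7 to 80.9) were found in the KMT2D-KD list. Of the KMT2D-KD intervals, 181 of 318 (56.9%, 51.3 to 62.4) were found in the NC list. Joined where they overlapped, the 556 intervals made 375 regions, of which 180 were in both lists, 58 in NC only and 137 in KMT2D-KD only. The smallest overlap of a found pair was 119 bases and the median was 250, and only 2 of the 58 NC-only intervals came within 1000 bases of a KMT2D-KD interval. With the 238 highest −log10 q intervals taken from each list, 166 of the NC ones (69.7%) and 167 of the KMT2D-KD ones (70.2%) were found in the other.

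Intervals found in both lists had the higher medians in each. The NC intervals found had a median fold enrichment over input of 10.1 and a median −log10 q of 27.2, against 4.60 and 5.06 for those not found. The KMT2D-KD intervals found had medians of 12.9 and 34.6, against 6.37 and 8.95 for those not found. In long tandem repeats, those with a unit over 50 bases, the order was the reverse for fold, with medians of 2.58 (found) and 4.22 (not found) in NC and 2.72 and 4.85 in KMT2D-KD. The upper ends of the unshared groups differed more: the highest fold enrichment was 15.4 among NC-only intervals and 895 among KMT2D-KD-only ones. An interval missing from a list has no value there. The fewest fragments in a listed interval at a background within 1.2 times the lowest were 8 in NC and 7 in KMT2D-KD.

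**Figure D1:**
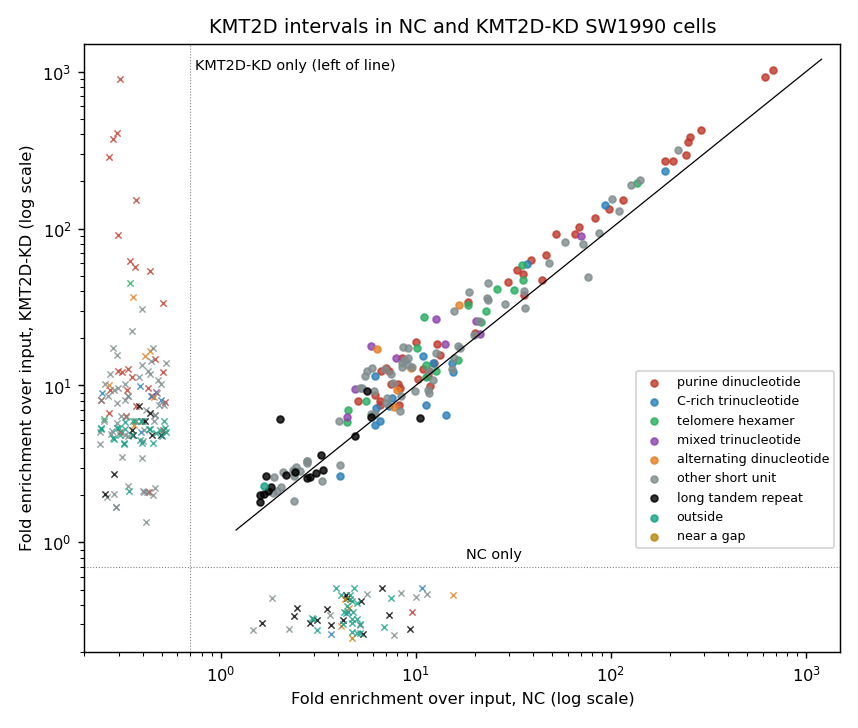
Fold enrichment over input in NC (horizontal, log scale) and KMT2D-KD (vertical, log scale) for the 180 NC KMT2D intervals found in both lists (dots, 1 per interval, coloured by repeat class, with the line of equality). Crosses beyond the dotted lines are intervals in 1 list, placed at their own fold enrichment and at arbitrary positions in the strip of the missing list. Of the dots, 148 lie above the line, and the highest KMT2D-KD-only cross is at 895 while the highest NC-only cross is at 15.4.

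By sequence, 178 of the 238 NC intervals (74.8%, 68.8 to 80.2) held a short tandem repeat with a unit of 1 to 50 bases. A further 33 lay in a long tandem repeat with a unit of 51 to 500 bases, 2 lay within 10000 bases of an undetermined stretch of the assembly, and 25 lay outside all of these. In KMT2D-KD the counts were 264 of 318 (83.0%, 78.4 to 87.0), 27, 0 and 27. For comparison, a short tract scored by the same rule lay in 4.07% of the 64843 NC H3K4me1 intervals and in 4.58% of the 92135 KMT2D-KD H3K4me1 intervals. A tract scores +1 for each base equal to the base 1 unit further on and −1 for each that differs, and a score of at least 30 was required. The highest score left out was 26 and the lowest taken in was 31, with 5 intervals scored 20 to 29 and 5 scored 30 to 39.

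Whether an interval was found in the other list differed widely between the classes. Of the NC intervals in short tandem repeats, 161 of 178 (90.4%, 85.1 to 94.3) were found in KMT2D-KD. In long tandem repeats 18 of 33 (54.5%, 36.4 to 71.9) were found, and outside repeats and gaps 1 of 25 (4%, 0.101 to 20.4). Of the KMT2D-KD intervals, 162 of 264 in short tandem repeats (61.4%, 55.2 to 67.3), 18 of 27 in long ones (66.7%, 46.0 to 83.5) and 1 of 27 outside (3.70%, 0.0937 to 19.0) were found in NC. Apart from 1 interval, the set that both lists shared lay in tandem repeats, 179 of the 180 found NC intervals. Among NC-only intervals 24 of 58 (41.4%, 28.6 to 55.1) lay outside repeats and gaps, and among KMT2D-KD-only ones 26 of 137 (19.0%, 12.8 to 26.6).

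**Figure D2:**
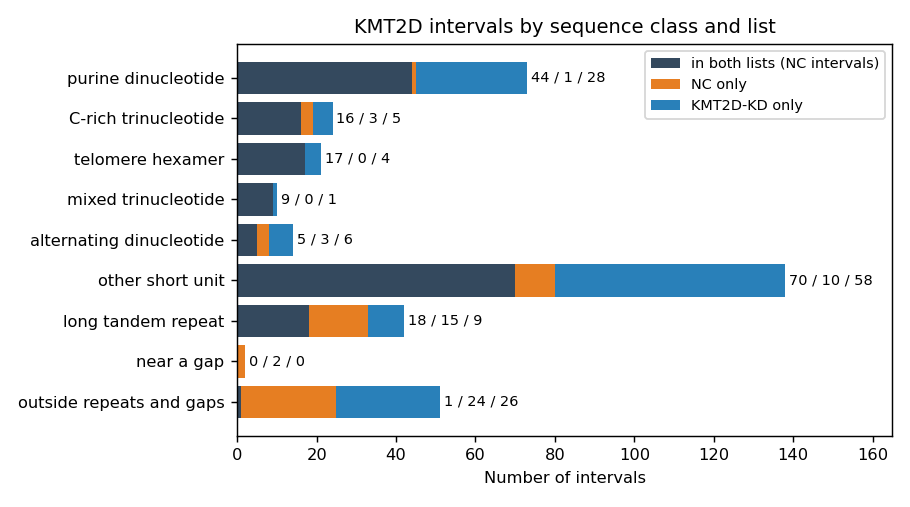
Number of KMT2D intervals (horizontal) by sequence class (vertical), split into those in both lists (counted as NC intervals), in NC only and in KMT2D-KD only, with the 3 counts beside each bar in that order. Repeat classes are named by their unit: purine dinucleotide (AG), C-rich trinucleotide (ACC), telomere hexamer (AACCCT), mixed trinucleotide (ATC) and alternating dinucleotide (AC). The purine dinucleotide bar is split 44, 1 and 28, and the bar outside repeats and gaps 1, 24 and 26. All bars together hold 180, 58 and 137.

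The commonest unit was the purine dinucleotide AG, which stands for AG, GA, CT and TC, since a repeat was read on both strands. It made up 45 NC and 73 KMT2D-KD intervals. The purines were on the plus strand in 23 of the 45 and in 32 of the 73, so neither strand prevailed. Of the 45 NC intervals, 44 were found in KMT2D-KD (97.8%, 88.2 to 99.9). Of the 73 KMT2D-KD intervals, 45 were found in NC (61.6%, 49.5 to 72.8), which left 28 in KMT2D-KD only and 1 in NC only.

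The strongest KMT2D intervals of the NC list were AG repeats in both lists. An intergenic repeat at chr7:157461262-157461689, 125881 bases from the start of DNAJB6, a co-chaperone gene, had a fold enrichment of 678 in NC and 1019.8 in KMT2D-KD, from 2308 and 2746 fragments. The TRERF1 repeat printed above, in an intron of a zinc finger transcription regulator, had folds of 617 and 924, from 1854 and 2109 fragments. A repeat at chr12:110387213-110387436, annotated within an exon of a transcript of ANAPC7, a subunit of the anaphase-promoting complex, had folds of 290 and 423. All 3 were enriched with every antibody, at least in the KMT2D-KD cells. The DNAJB6 repeat had folds of 737 (NC) and 980 (KMT2D-KD) with the EBF2 antibody, and 55.3 and 138 with the H3K4me1 antibody. The TRERF1 repeat had EBF2 folds of 774 and 852 and an H3K4me1 fold of 233 in KMT2D-KD, with no NC H3K4me1 interval. The same pattern held further down the NC list for an intron repeat in KIAA1671 (chr22:25093683-25093890), with KMT2D folds of 243 and 293 and EBF2 folds of 232 and 274. Intergenic repeats lay 1131844 bases from the start of FLRT2 (chr14:84398097-84398300), with folds of 249 and 354, and 223661 bases from that of SRRM4 (chr12:118757662-118757880), with 208 and 270. A further 2 of the 10 strongest NC intervals were AG repeats on chromosome 8, with folds of 255 (NC) and 386 (KMT2D-KD) at one and of 189 and 270.5 at the other.

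At these shared AG repeats the KMT2D-KD value was the higher one throughout. The log2 ratio of fold enrichment, KMT2D-KD over NC, was 0.59 at the DNAJB6 repeat, 0.58 at TRERF1, 0.55 at ANAPC7, 0.51 at the chromosome 14 repeat, 0.38 at the intergenic chromosome 12 repeat and 0.27 at KIAA1671. Dividing recovered fragments by depth gave 0.49 (counting interval 0.41 to 0.57) at the DNAJB6 repeat and 0.42 (0.33 to 0.51) at TRERF1. The EBF2 fold was also higher in KMT2D-KD at each repeat given a ratio here. It was 312 (NC) and 381 (KMT2D-KD) at ANAPC7, 299 and 320 at the chromosome 14 repeat, and 229 and 273 at the chromosome 12 one. H3K4me1 folds were 22.3 and 61.2 at ANAPC7 and 14.7 and 46.9 at the chromosome 14 repeat. Some weaker AG repeats had a lower EBF2 fold in KMT2D-KD, such as chr10:132912168-132912554 with 11.2 and 7.96. An AG repeat 122 bases from the start of GOLM2 (chr15:44288400-44288597), a Golgi membrane protein gene, had folds of 46.4 and 67.35. It was also in both EBF2 lists, with folds of 62.1 and 64.2, and in neither H3K4me1 list.

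The KMT2D-KD-only AG repeats included some of the strongest intervals of that list. The NECTIN1 repeat printed above, 14783 bases from the start of this cell adhesion gene, had a fold enrichment of 895 from 1804 fragments. This was the fourth highest −log10 q of the KMT2D-KD list, and no interval of the NC KMT2D list or of the EBF2 and H3K4me1 lists overlapped it. An intron repeat of PLCL1 (chr2:198277465-198277713), which encodes a phospholipase C-like protein, had a fold of 405 from 750 fragments. A repeat 120553 bases from the start of KCNJ3 (chr2:154577142-154577302), a potassium channel gene, had a fold of 372 from 690 fragments. Neither was in any other list. An intron repeat of MAP4K4 (chr2:101785660-101785818), a kinase gene, had a fold of 285 from 766 fragments, and its only other appearance was in the NC H3K4me1 list, with a fold of 37.7. An intron repeat of PLA2G7 (chr6:46734308-46734503), the gene of a phospholipase that inactivates platelet-activating factor, had a fold of 152 from 358 fragments and was in no other list.

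In all, 10 KMT2D-KD-only AG repeats had at least 100 fragments, and 5 of them were in none of the EBF2 and H3K4me1 lists. The NC list had no such case. All 16 NC AG repeats with at least 100 fragments were found in KMT2D-KD, and all 16 were also in an EBF2 list. The background at these 16 was 1.06 to 4.96 times the lowest of the list. At the 10 KMT2D-KD-only repeats it was 1 to 172.9 times, so not all of them had low input. Within the interval, the 16 shared repeats of NC scored 150 to 584 (median 194.5), and the 10 KMT2D-KD-only repeats scored 88 to 141 (median 117). The score inside an interval cannot exceed its width, and the KMT2D-KD-only intervals were narrower, 158 to 249 bases against 181 to 1012, the narrowest interval of the KMT2D-KD list being 157 bases and that of the NC list 176. Scored as whole tracts of hg38, past the ends of the intervals, the shared repeats had 139 to 735 (median 190) and the KMT2D-KD-only repeats 88 to 141 (median 117), so the ranges met only between 139 and 141. These values rest on 1 library per side, and what sets the KMT2D-KD-only repeats apart was not tested. Weaker members of this group included introns of CCDC200 (chr17:43233310-43233476), with a fold of 56.5 from 132 fragments and an EBF2 fold of 46.9 in KMT2D-KD cells, and CYP1B1 (chr2:38088749-38088910), a cytochrome P450 gene, with 62.0 from 124 fragments.

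Only a small share of the genome's AG repeats was listed, and that share rose steeply with tract length. Of 14142 AG tracts in hg38, 75 (0.53%) lay under an NC KMT2D interval and 121 (0.856%) under a KMT2D-KD one. Among the 9327 tracts scoring 30 or more but under 50 the shares were 0.0214% and 0.0536%, and among the 4200 scoring 50 or more but under 100 they were 0.0714% and 0.333%. From 100 to under 150 they were 3.34% (1.79 to 5.65) and 7.455% (5.05 to 10.5), and at 150 or more, 25.2% (19.7 to 31.4) and 32.3% (26.3 to 38.8) of 226 tracts. Long tracts of another dinucleotide had far lower shares, with intervals that did not overlap those of AG. Of 61796 AC tracts, an alternating purine-pyrimidine dinucleotide, 14 (0.0227%) and 19 (0.0307%) were listed, and at scores of 150 or more 1.04% (0.477 to 1.97) and 1.39% (0.719 to 2.41) of 865 tracts. The EBF2 lists gave a similar picture. At scores of 150 or more they held 27.43% (NC) and 30.97% (KMT2D-KD) of the AG tracts. Of the AC tracts at these scores they held 1.272% and 1.503%. The H3K4me1 lists held 10.18% and 19.91% of these AG tracts, and 3.121% and 5.087% of these AC tracts. The higher share of long AG tracts was thus not confined to the KMT2D lists. The counts by tract were a comparison added after the intervals had been seen.

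**Figure D3:**
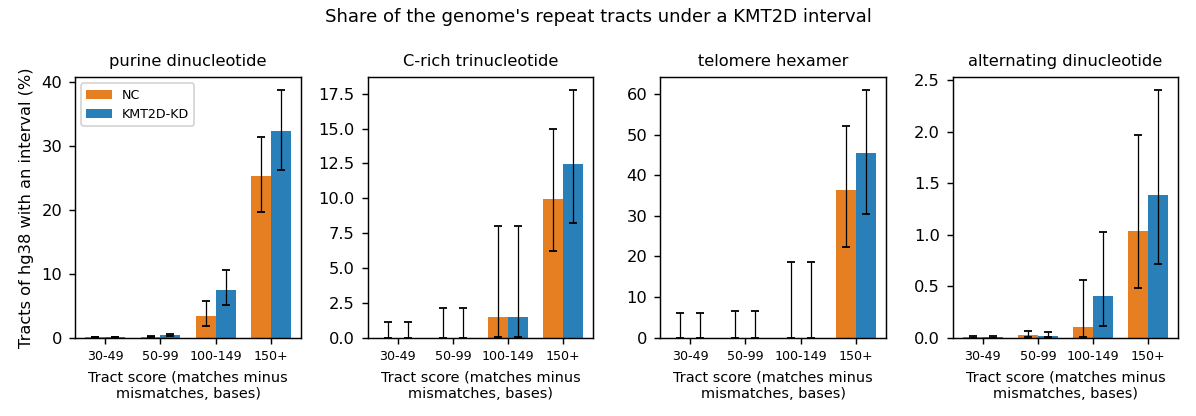
Share of the repeat tracts of hg38 that lie under a KMT2D interval (vertical, percent, axes differ between panels) by tract score (horizontal) for 4 repeat units, in NC and KMT2D-KD, with exact binomial 95% intervals as bars' error lines. At a score of 150 or more, 25.2% and 32.3% of the purine dinucleotide tracts were listed against 1.04% and 1.39% of the alternating dinucleotide tracts.

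The next units were the trinucleotide ACC, with 19 NC and 22 KMT2D-KD intervals, and ATC, with 9 and 10. Of all ACC tracts in the genome 2.77% were listed in NC and 3.43% in KMT2D-KD, and of all ATC tracts 0.798% and 1.09%. An intron repeat of the related hexamer ACCATC in RFLNA (chr12:124092668-124093481), a regulator of actin filaments, was the fifth strongest NC interval, with folds of 221 and 319. Of the 7 KMT2D-KD intervals with this hexamer 2 were found in NC, while 56.9% of all KMT2D-KD intervals were. The other 5 had folds from 4.44 to 5.19, near the lower quartile of 4.94 among all KMT2D-KD-only intervals. With so few intervals, whether this unit differs from the rest was not tested. The dinucleotide AC had 8 NC and 11 KMT2D-KD intervals, of which 5 were found in each direction.

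The telomere hexamer AACCCT, which reads TTAGGG on the other strand and caps human chromosomes, was found without exception in 1 direction. All 17 NC intervals of this unit were in the KMT2D-KD list (100%, 80.5 to 100), and 17 of the 21 KMT2D-KD intervals were in the NC list. Of the 174 tracts of this unit in hg38, 9.2% were listed in NC and 11.5% in KMT2D-KD. All 17 NC and 20 of the 21 KMT2D-KD intervals lay within 200 kb of a chromosome end. The strongest was at the end of the long arm of chromosome 18 (chr18:80262890-80263284), with folds of 137 and 195 from 355 and 393 fragments, and the others had folds down to 4.45 and 5.83. The strongest KMT2D-KD-only telomere repeat lay 113157 bases from the end of the short arm of chromosome 17 (chr17:113158-113332), with a fold of 45.3 from 83 fragments and an EBF2 fold of 38.7 in NC.

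Across all units, intervals within 2 Mb of a chromosome end numbered 49 of 238 in NC (20.6%, 15.6 to 26.3) and 62 of 318 in KMT2D-KD (19.5%, 15.3 to 24.3). The same zone holds 2.80% of the determined bases of the genome. Longer short units, of 12 bases or more, made up 31 NC and 47 KMT2D-KD intervals. MAL, which encodes a myelin and lymphocyte membrane protein, held 3 shared regions, read in NC with shorter units: ACTC, ACTCAGTC and ACTC. Their folds were 11.7 and 8.92, 36.4 and 31.2, and 21.1 and 25.9.

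A separate set of repeats had a high background in the input. At 46 of the 238 NC intervals and 50 of the 318 KMT2D-KD intervals the background at the summit was more than 10 times the lowest of the list. Their median fold was 2.41 in NC and 2.53 in KMT2D-KD, from a median of 251.5 and 271 fragments. The extreme was a 26-base-unit repeat beside the centromere of chromosome 1 (chr1:125179982-125180520), with 5464 (NC) and 4626 (KMT2D-KD) fragments over a background of 2612 and 2622 times the lowest, and folds of 1.85 and 2.06. The densest megabase of the genome, from 143 to 144 Mb of chromosome 1, held 13 NC and 14 KMT2D-KD intervals within 74.01 and 71.85 kb, with 11 of each found in the other list. Their units were of 26, 23 or 49 bases, their backgrounds 54.6 to 886 times the lowest in NC, and their NC folds 1.84 to 4.08 and their KMT2D-KD folds 1.83 to 3.29. All 5 intervals of the satellite pentamer AATGG were in KMT2D-KD only, with backgrounds of 5.94 to 424 times the lowest and folds of 1.35 to 3.45.

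Long tandem repeats differed from short ones in the lists too. Of the 33 NC intervals, 21 had a unit of 170, 171 or 338 to 341 bases, and so had 16 of 27 KMT2D-KD ones. These are the lengths of 1 or 2 monomers of the alpha satellite found at human centromeres. The count went by length alone. It includes a 341-base unit in NC at chr18:110272-110722, 110271 bases from a chromosome end. The median fold enrichment of the class was 3.11 in NC and 2.905 in KMT2D-KD. Among the NC-only long repeats were 3 with a 147-base unit, such as chr4:49316872-49317077, with a fold of 3.50 from 119 fragments at 29.4 times the lowest background. It was also listed with the EBF2 antibody in KMT2D-KD cells, with a fold of 3.44.

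**Figure D4:**
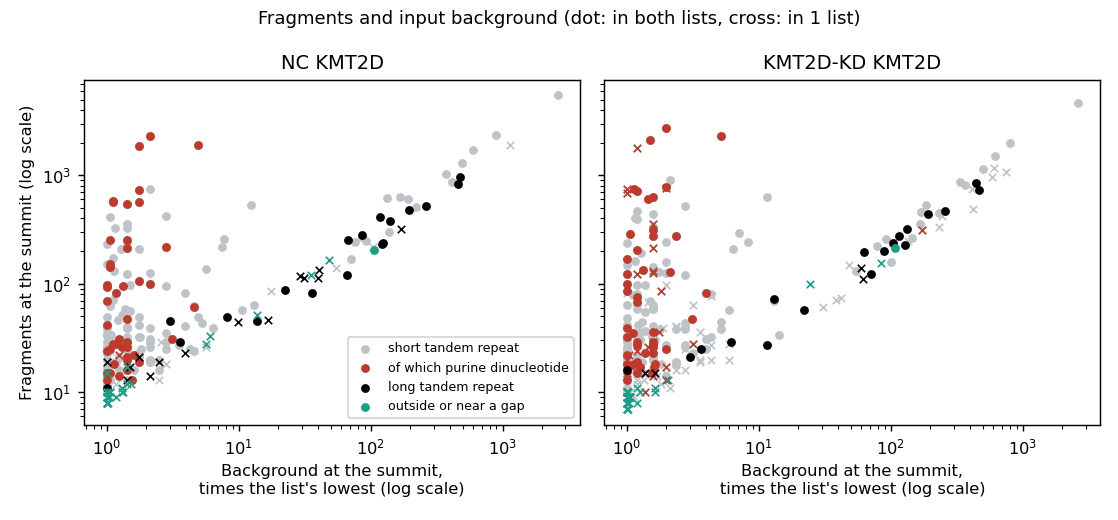
Recovered fragments at the summit (vertical, log scale) against the background there as a multiple of the list's lowest (horizontal, log scale) for the KMT2D intervals of NC (left) and KMT2D-KD (right), dots for intervals in both lists and crosses for those in 1 list. Intervals outside repeats and gaps sit mostly at the lower left with 7 to 28 fragments, and the purine dinucleotide crosses at the upper left of the KMT2D-KD panel reach 1804 fragments.

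At the 180 shared intervals the fold enrichment was mostly higher in KMT2D-KD. The median log2 ratio, KMT2D-KD over NC, was 0.34 (quartiles 0.10 and 0.61, range −1.15 to 1.60), and 148 of 180 were higher in KMT2D-KD. A ratio of at least 2 was reached at 10 intervals (5.56%) upward and at 1 (0.556%) downward. With recovered fragments divided by depth, the median was 0.33 and 145 of 180 were higher. The counting interval of this depth-scaled ratio lay above 0 at 59 intervals, below 0 at 8 and across 0 at 113. Divided by the lowest background alone, which leaves out the narrowest interval, the median was 0.50, 159 were higher, and the interval lay above 0 at 84 and below 0 at 3. Since a single depth value scales all 180, an error in it would shift them together. Whether the shift is particular to the KMT2D antibody was not tested.

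The repeat units differed in the size of this shift. For AG the median log2 ratio of fold enrichment was 0.50, with 41 of 44 higher in KMT2D-KD and none changed by a factor of 2. For AACCCT it was 0.39 with 15 of 17 higher, and for ATC 0.49 with 8 of 9. For ACC it was 0.08 with 9 of 16 higher, and for long tandem repeats 0.20 with 12 of 18. Depth-scaled, 42 of 44 AG intervals and 16 of 17 AACCCT intervals were higher in KMT2D-KD, against 9 of 16 for ACC and 10 of 18 for long repeats. Scaled by the lowest background alone, these counts were 44, 17, 11 and 12. The largest rise was at an intergenic ATC repeat on chromosome 17 (chr17:79893966-79894152), from a fold of 5.87 to 17.8 with 19 and 41 fragments. The largest fall was at an intergenic ACC repeat on chromosome 18 (chr18:4510717-4510964), from 14.3 to 6.47 with 42 and 23 fragments, where the depth-scaled interval of −1.43 to 0.14 crossed 0. A strong repeat on chromosome 9 (chr9:85264624-85265281) was one of the 8 below 0, with folds of 76.1 and 49.1, from 172 and 98 fragments.

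**Figure D5:**
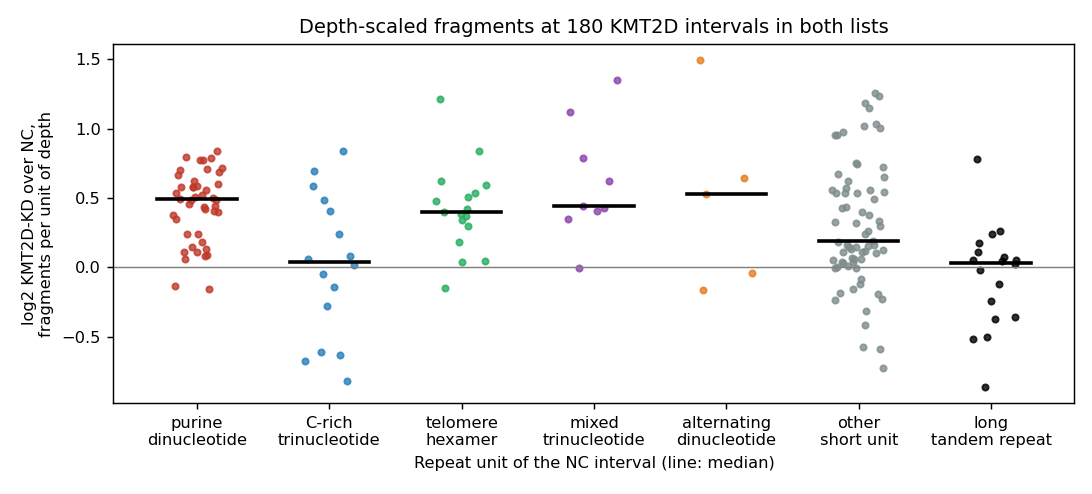
Log2 ratio of depth-scaled fragments, KMT2D-KD over NC (vertical), at the 180 KMT2D intervals in both lists except the single one outside repeats, 1 point per interval, by repeat unit (horizontal), with the median as a line. Of the purine dinucleotide points 42 of 44 lie above 0 (range −0.16 to 0.84), and the C-rich trinucleotide points run from −0.82 to 0.84.

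The NC-only intervals were few in short repeats and weak where input was low. Only 17 of the 58 held a short tandem repeat, against 102 of the 137 KMT2D-KD-only intervals. The highest −log10 q, 50.5, belonged to a 42-base-unit repeat beside the centromere of chromosome 3 (chr3:93470463-93470713), with 1887 fragments but a fold of 1.47 at a background of 1134 times the lowest. The next was an intron AC repeat of STARD8 (chrX:68652868-68653298), with a fold of 15.4 from 33 fragments, which had EBF2 folds of 7.40 in NC and 13.0 in KMT2D-KD. An interval at chr4:49513476-49513858, outside repeats, had a fold of 2.985 at 48.55 times the lowest background and came next. All 10 NC-only intervals with at least 100 fragments had a background over 10 times the lowest. Where it was up to 10 times, the 45 NC-only intervals had at most 44 fragments, whereas 9 of the 120 KMT2D-KD-only intervals had at least 100. Hosts of weaker NC-only short repeats included GCGR, the glucagon receptor gene, whose intron repeat had a fold of 9.98. Others were FOXN3, a forkhead factor gene, with 10.8, and JAKMIP3, with 9.53 at an AG repeat.

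Outside tandem repeats and gaps the lists had 1 region in common. It was the FAM230C exon printed above, on chromosome 13 close to the centromere, with 203 fragments and a fold of 1.67 in NC and 213 fragments and a fold of 2.28 in KMT2D-KD. Its background was 107 and 108 times the lowest, and it was also in both EBF2 lists (1.91 and 2.002) and both H3K4me1 lists. FAM230C belongs to a family of long non-coding RNA genes with near copies elsewhere, and whether its reads are its own was not tested.

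Most other intervals outside repeats had few fragments. Of the 24 in NC only, 21 had a background of up to 10 times the lowest, with 8 to 28 fragments (median 10) and folds of 3.91 to 7.51. Of the 26 in KMT2D-KD only, 24 did, with 7 to 13 fragments (median 9) and folds of 4.26 to 5.95. None of these 45 was in an EBF2 list, and 1 in each KMT2D list was in an H3K4me1 list. The remaining 3 in NC only had 51 to 166 fragments and a −log10 q of 7.87 to 28.4, at a background of 13.8 to 48.55 times the lowest. The remaining 2 in KMT2D-KD only had 99 and 155 fragments and a −log10 q of 12.3 and 29.9, at 24.5 and 84.7 times the lowest. The strongest low-background one in NC was the H2BC18 coding exon, in a histone H2B gene, with a fold of 7.51 and a −log10 q of 8.32 from 15 fragments. H2B genes are near copies of each other, and whether these fragments came from this copy was not tested. The next was chr5:17592131-17592316, 1171 bases from the start of TAF11L8, with 6.91 from 17 fragments. The 2 intervals near an assembly gap were 631 and 489 bases from the starts of TAF11L6 and TAF11L7, of the same multicopy family, with folds of 4.35 and 4.69. The strongest low-background one in KMT2D-KD was in an intron of a long non-coding RNA gene at chr16:58904406-58904566, with a fold of 5.95 from 11 fragments. Intergenic ones 11743 bases from the start of OR7A17 (chr19:14897875-14898037), an olfactory receptor gene, and 84233 bases from that of ICA1 (chr7:8346920-8347112), an islet autoantigen gene, both had 5.93 from 10 fragments. An intron of EPHB1, an ephrin receptor gene (chr3:135239056-135239222), had 5.06 from 13 fragments.

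KMT2D intervals were not concentrated in genes. Of the NC intervals 101 of 238 (42.4%, 36.1 to 48.99) and of the KMT2D-KD intervals 139 of 318 (43.7%, 38.2 to 49.4) touched a gene record, while gene records cover 60.5% of the determined bases of the genome. Most of those inside were intronic: 95 in NC and 134 in KMT2D-KD, against 6 and 5 in exons of any kind. Within 1000 bases of a protein-coding start there were 5 NC intervals, at H2BC18, GOLM2, COL6A1, TAF11L6 and TAF11L7, and 2 KMT2D-KD intervals, at GOLM2 and COL6A1. The COL6A1 repeat, 732 bases from the start of this collagen VI gene (chr21:45980602-45981038), was shared, with folds of 35.6 and 51.65. The 160 regions inside genes touched 176 host genes, 119 protein-coding and 54 long non-coding.

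A host of several regions was rare, with 8 genes touched by at least 2. MAL, described above, had 3 regions. MYT1L, a neural zinc finger factor gene, had 2 shared regions on chromosome 2, with folds of 82.6 and 117 at one AG repeat. The other, with folds of 11.7 and 12.4, was read as AG in NC and as a longer unit in KMT2D-KD. CFAP46, a cilia protein gene, had an AG repeat with folds of 7.51 and 10.2 and a KMT2D-KD-only repeat with 7.54. LINC02646 had a shared repeat with folds of 72.25 and 80.3 and a KMT2D-KD-only one with 17.4. ITFG2-AS1 and ROCK1P1 each had 2 shared regions, and LINC02689 had 2 in KMT2D-KD only, with folds of 11.85 and 6.68.

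None of 37 genes from 4 lists had a KMT2D interval in the gene or within 10000 bases, in either cell population. The lists were the KMT2D complex (0 of 10), H3K4 demethylases (0 of 5), pancreatic lineage factors (0 of 15) and p53 and pancreatic cancer genes (0 of 7). Among all 20033 protein-coding genes 0.569% had one in NC and 0.669% in KMT2D-KD, so 0 of 37 does not stand apart from the background. The H3K4me1 lists had an interval inside 42.2% (NC) and 52.7% (KMT2D-KD) of the same 20033 genes. Of the listed genes, they had one inside 8 and 9 of the 10 complex genes, 3 and 3 of the 5 demethylases, 7 and 7 of the 15 lineage factors, and 6 and 5 of the 7 p53 and cancer genes. As a check of the cell type, H3K4me1 intervals lay inside 4 (NC) and 5 (KMT2D-KD) of 6 ductal epithelial marker genes. They also lay inside 1 of 3 leukocyte, 2 of 3 fibroblast and 3 of 3 endothelial marker genes in both, so an H3K4me1 interval in a gene did not separate the cell types.

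By chromosome, KMT2D-KD had more intervals on 20 of 24, NC had more on 3 (4, 8 and X), and chromosome 9 had 7 in each. Per 100 Mb, chromosome 22 was highest in NC with 25.6 and chromosome 21 in KMT2D-KD with 32.1, and chromosome X was lowest in both with 2.56 and 1.92. Chromosome 21 had 7 (NC) and 15 (KMT2D-KD) intervals and chromosome 19 had 8 and 17, each with 9 KMT2D-KD-only regions. Chromosome 16 had 4 and 11, with 8 such regions, and chromosome 2 had 14 and 23, with 12. The whole lists held 238 and 318 intervals, with 137 KMT2D-KD-only regions.

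The EBF2 antibody listed most of the places that both KMT2D lists shared. Of the 180 found NC intervals, 173 were in the NC EBF2 list and 170 in the KMT2D-KD EBF2 list. The 58 NC-only intervals had 14 and 17, and the 137 KMT2D-KD-only intervals 45 and 42. Of the whole lists, 187 of 238 NC and 219 of 318 KMT2D-KD intervals were in the NC EBF2 list. H3K4me1 intervals overlapped 53 (NC) and 84 (KMT2D-KD) of the 180, 14 and 15 of the 58, and 12 and 10 of the 137. All 6 lists share the input, so these overlaps are not independent of each other. Median fragments were 46.5 at found and 17 at NC-only intervals in NC, and 47 and 17 in KMT2D-KD. Whether the overlaps follow this strength was not tested. In no EBF2 or H3K4me1 list were 29 of the NC-only intervals, 22 of them outside repeats and gaps, and 68 of the KMT2D-KD-only ones, 23 of them outside and 12 of them AG repeats.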

How the data were processed

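Each of the 6 lists came from 1 ChIP library called against the SW1990 input. Per the labels and the study's methods, the authors filtered reads and aligned them with bwa. The submitters' processing notes name BWA, MACS2, HOMER and hg38, without versions or roles. The deposited intervals carry a fold enrichment (a ratio over input), a −log10 p and a −log10 q, and a score, as the authors' caller wrote them. The largest q was 0.0474 in NC and 0.0382 in KMT2D-KD. Read totals and the handling of duplicate reads are not given in the sources used here.

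Fragments and background at a summit were recovered from fold = (fragments + 1) / (background + 1) and the Poisson p, for 100% of intervals, within 0.001 in −log10 p or 2e-05 of it. Depth is the lowest background divided by the narrowest interval, and this assumes that the narrowest interval is the fragment length. Repeats were searched in hg38, with 1000 bases added either side for long units (score of at least 100), and the shortest unit within 10% of the best score was kept. Genes are from GENCODE release 44. Coordinates count from 1. No chromosome bands were used.

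The members and gene lists were chosen with earlier results of these data known. Intervals named are the 10 highest −log10 q of each list, the 5 highest of each list's own intervals, those outside repeats in both lists, the 10 highest outside repeats in 1 list, the highest of each of the 5 commonest units, and hosts of at least 2 regions. Others were singled out after their values were seen. They included the extremes of the ratio, the PLA2G7, CCDC200 and CYP1B1 repeats, and the GCGR, FOXN3 and JAKMIP3 repeats. The repeats of chromosome 1, the telomere repeats outside NC and the promoter intervals were also among them. The limits of 100 fragments and of 10 times the lowest background were also set after the data were seen. Some intervals that the rule names are given by counts only, and a few sequences and intervals are not reported here. Scripts ran in Python 3.11.15 with numpy 2.4.6, scipy 1.17.1, numba 0.67.0 and matplotlib 3.10.9, and were tested on simulated repeats and fragments.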

Additional observations from a re-analysis of the deposited data

How the results depend on the processing

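No paired analysis was possible because each list comes from 1 library. Of 58 settings over 10 results, 37 stayed within the result's own 95% interval, and none changed the sign of the 2 log2 ratios. Once both lists were limited to a −log10 q of 5 or higher, 83.9% of NC intervals and 62.7% of KMT2D-KD intervals were found in the other list, 96.0% and 98.9% lay in a tandem repeat, and 18.75% of the NC-only and 2% of the KMT2D-KD-only intervals lay outside repeats and gaps. With a fold of at least 5, 88.8% of NC intervals were found, 97.5% (NC) and 94.4% (KMT2D-KD) lay in a tandem repeat, 22.2% of the NC-only intervals lay outside, and 50.9% and 49.8% lay inside a gene. With equal numbers of the highest −log10 q intervals, 70.2% of KMT2D-KD intervals were found. Searching the interval sequence alone for long units gave 76.9% (NC) and 83.65% (KMT2D-KD) in a tandem repeat and 58.6% of NC-only intervals outside. Counting protein-coding genes only gave 31.1% inside a gene in both lists (31.09% and 31.13%), while protein-coding gene records cover 44.4% of the determined bases. A pair of changes was chosen after seeing the data, and they account for 11 of the 58 settings. Fragments divided by the lowest background moved the median log2 ratio to 0.50, while division by depth gave 0.33. Leaving out backgrounds over 10 times the lowest put 50% (NC) and 49.6% (KMT2D-KD) inside a gene. The cause of these shifts was not tested, beyond the fewer intervals counted. At a background near the lowest, a place with fewer than 8 (NC) or 7 (KMT2D-KD) fragments was not listed, so an absence from a list is not a measured 0. With 1 library per side, the KMT2D-KD-only intervals cannot be told apart from a property of that library.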
